A study of Mus musculus with 8 samples.

Results

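Kinesins are the motor proteins that walk along, or take apart, microtubules, and 42 of the 23361 genes in the deposited table carry a kinesin symbol, that is, a name opening with Kif or Kifc and a number. By their known work, 14 of these were classed as mitotic kinesins, 15 as cargo kinesins, 12 as other kinesins, and Kif4-ps as a pseudogene. Their messenger RNA was compared between 4 libraries of Nrp-1+ iTreg and 4 of Nrp-1- iTreg. iTreg are CD4+ T cells turned into Foxp3-expressing regulatory T cells in culture, and Nrp-1 (neuropilin-1, gene Nrp1) is a surface receptor used here to divide them. The series asks how the iTreg that carry Nrp-1 differ in gene expression from those that do not.

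Both groups came from the same kind of culture and differed only in the last sorting gate. Naive CD4+ T cells (CD44 low, CD62L high) of Foxp3-RFP reporter mice, genotype WT, were stimulated with anti-CD3/CD28 beads in IL-2 (50 U/ml) and TGF-β (2 ng/ml). Viable CD4+ cells with the Foxp3 reporter were then sorted and split into NRP-1+ and NRP-1- subsets. The protocol gives 3 days of culture while the time label reads day 5, and the labels call the libraries biological replicates without saying whether each came from its own mouse or culture, so the p-values below measure the spread between these libraries. Every library therefore holds cells that had been activated in culture and expressed Foxp3, and each is a bulk sample, in which more cells of a kind and more RNA per cell cannot be told apart.

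In a dividing cell, mitotic kinesins build the bipolar spindle, move chromosomes, trim microtubule ends and close the midbody at cytokinesis, and many of their genes are transcribed mainly in the G2 and M phases. Cargo kinesins instead carry vesicles, endosomes, lysosomes, mitochondria and RNA along microtubules at all times, most of them outward, with light chains and adaptors that choose the load. In a T cell, microtubule motors also serve the reorientation of the centrosome and of secretory granules towards a contacted cell.

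The sort was visible in Nrp1 itself, which was at 20.4 to 22.0 FPKM in Nrp-1+ iTreg and 4.70 to 5.31 FPKM in Nrp-1- iTreg (FPKM, fragments scaled to exon length and to the library's mapped fragments). The T cell genes Cd3e and Cd4 and the Treg gene Foxp3 were high in both groups, and the 6 T and Treg markers summed to 1051 to 1078 FPKM in Nrp-1+ and 1046 to 1069 FPKM in Nrp-1- iTreg. Of the 6, Ikzf2 (2.56 against 1.86 FPKM), Il2ra (265.5 against 227.9 FPKM) and Foxp3 (115.8 against 108.8 FPKM) were called higher in Nrp-1+ iTreg by the limma test described below and Ctla4 (143.6 against 160.02 FPKM) lower. Of 12 markers of other cells, 3 had a mean of at least 1 FPKM: H2-Ab1 (10.2 against 13.8 FPKM) and Cd8b1 (7.86 against 10.0 FPKM) were lower in Nrp-1+ iTreg and Itgam (6.70 against 5.56 FPKM) was higher, while the other 9, among them Csf1r, Lyz2, Ncr1 and Cd8a, were at no more than 0.867 FPKM in any library and Ms4a1 at 0 in all. The summed level of these 12 was 24.9 to 26.7 FPKM against 28.0 to 32.4 FPKM, and its part in the kinesin results was not tested. The table gives no counts. From the steps that single reads leave in low genes, sequencing depth ranged from 0.810 to 1.236 times that of Nrp-1+ replicate 1. Short RNA genes took 1.77% to 38.9% of the summed FPKM in the Nrp-1+ libraries and 4.45% to 43.9% in the Nrp-1- libraries.

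Of the 42 kinesin genes, 26 had a mean of at least 1 FPKM over the 8 libraries and were tested, along with 10467 genes in all, by limma on log2(FPKM + 1), with Benjamini-Hochberg adjustment over all of them. A gene is said below to have risen or fallen where the adjusted p was under 0.05. By this rule 17 kinesin genes rose in Nrp-1+ iTreg, 1 fell and 8 were not called, where 40.9% of all tested genes passed in either direction, 20.9% higher and 20.0% lower. Among the mitotic kinesins all 13 that were tested rose and none fell. Among the 9 tested cargo kinesins 3 rose, none fell and 6 were not called, and among the 4 tested other kinesins 1 rose, 1 fell and 2 were not called. The 4 libraries of Nrp-1+ iTreg lay above all 4 of Nrp-1- iTreg in 18 of the 26 and below them in 1, against 20.2% and 19.3% of all tested genes. One of the 18, Kif7, reached the filter only through its Nrp-1+ libraries, which leaves 17 without it. Of the 26, 14 passed with a mean FPKM in Nrp-1+ iTreg at least 1.5 times that in Nrp-1- iTreg, namely the 13 mitotic kinesins and Kif24, which 5.57% of all tested genes did.

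**Figure D1:**
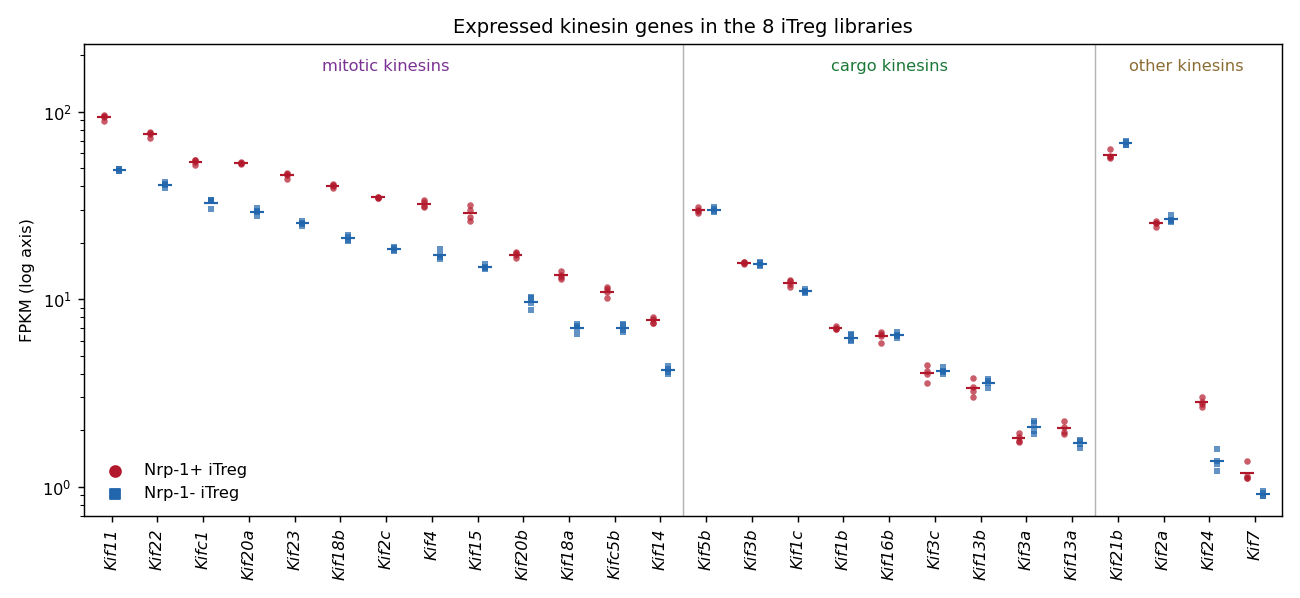
FPKM (log axis) of the 26 kinesin genes with a mean of at least 1 FPKM, each point 1 library (red circles Nrp-1+ iTreg, blue squares Nrp-1- iTreg) and each dash a group mean. The 13 mitotic kinesins at the left have red above blue with a gap in every gene, whereas most cargo kinesins in the middle overlap.

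The motors that shape the bipolar spindle include the most abundant kinesin of Nrp-1+ iTreg. Kif11, the kinesin-5 motor that slides antiparallel spindle microtubules apart, was at 96.0, 95.5, 94.0 and 89.2 FPKM in Nrp-1+ and at 49.5, 49.6, 48.2 and 48.3 FPKM in Nrp-1- iTreg. The lowest Nrp-1+ library thus stood far above the highest Nrp-1- library. Its log2 fold change was 0.92 (SE 0.027, limma adjusted p = 2.33e-07), a ratio of 1.92, and it ranked 58 by size among the 4282 genes called. Kif15, the kinesin-12 that can stand in for Kif11, was at 29.8, 31.7, 27.3 and 26.3 FPKM in Nrp-1+ and at 15.4, 14.5, 14.7 and 14.8 FPKM in Nrp-1- iTreg. It had the highest ratio of the mitotic class, 1.94 (log2 fold change 0.91, limma adjusted p = 6.2e-06), and also a wider spread among its Nrp-1+ libraries than most of the class. At the spindle poles acts Kifc1, a minus-end motor of the kinesin-14 family that focuses microtubules, which was at 55.4, 52.2, 54.1 and 55.2 FPKM against 33.8, 33.7, 30.3 and 33.3 FPKM. The groups were well apart, with a smaller ratio than for Kif11 (1.65, log2 fold change 0.71, limma adjusted p = 3.5e-06). Kifc5b, a near-identical copy of Kifc1, was at 10.1 to 11.6 FPKM against 6.67 to 7.39 FPKM (ratio 1.56). Reads of the pair could have been divided between them in either direction, so both their levels and this ratio are uncertain.

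Chromosome-bound motors rose too. Kif22, a chromokinesin that pushes chromosome arms away from the poles, was at 77.7, 72.1, 77.2 and 75.7 FPKM in Nrp-1+ and at 39.0, 42.1, 40.5 and 41.4 FPKM in Nrp-1- iTreg. No library of one group came near the other, with a log2 fold change of 0.88 (limma adjusted p = 4.41e-07). Kif4, the chromokinesin that also limits the length of midzone microtubules, was at 31.1 to 33.8 FPKM against 16.3 to 18.6 FPKM, a ratio of 1.88. Its pseudogene Kif4-ps was listed at 0 in every library.

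The mitotic kinesins that shorten microtubules or damp their growth rose as well. Kif2c, the centromere depolymerase that frees wrongly attached chromosomes, was at 35.2, 34.7, 34.6 and 35.3 FPKM in Nrp-1+ and at 18.8, 19.1, 18.3 and 18.0 FPKM in Nrp-1- iTreg. The libraries of each group lay within about 1 FPKM of each other, which gave Kif2c the lowest adjusted p of the kinesins (limma, 1.96e-07), with a log2 fold change of 0.88. Kif18b, which acts on astral microtubules, was at 39.2 to 41.1 FPKM against 20.5 to 22.0 FPKM (ratio 1.91). Kif18a, which calms the oscillation of aligned chromosomes, was at 12.9 to 14.2 FPKM against 6.52 to 7.42 FPKM (ratio 1.91). The related depolymerase Kif2b was listed at 0 in all 8 libraries.

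The motors of the midzone and cytokinesis completed the class. Kif20a, which brings the chromosomal passenger complex to the midzone, was at 53.7, 52.9, 53.2 and 53.5 FPKM in Nrp-1+ and at 29.3, 30.8, 27.8 and 29.4 FPKM in Nrp-1- iTreg. The 4 Nrp-1+ libraries were nearly level and all above the others (ratio 1.82, limma adjusted p = 3.71e-07). Kif23, the motor of centralspindlin, was at 46.7, 47.2, 46.1 and 43.7 FPKM against 25.2, 25.6, 24.7 and 26.1 FPKM, again without overlap (ratio 1.81). Kif14, which works with citron kinase at the midbody, had the lowest level of the 13 tested, at 8.06, 7.81, 7.47 and 7.48 FPKM against 4.43, 4.11, 4.25 and 4.00 FPKM. Its groups did not overlap either, with a ratio of 1.84. Its log2 fold change of 0.74 understates that ratio, since 1 is added to each FPKM before the log. Kif20b, needed for the last steps of cytokinesis, was at 16.7 to 17.8 FPKM against 8.78 to 10.3 FPKM (ratio 1.79).

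The levels of the 13 genes differed widely, with means over the 8 libraries from 5.95 to 71.3 FPKM. Their log2 fold changes ran from 0.57 to 0.92 with a median of 0.84, and the median over all tested genes was -0.016. Whether any member moved more or less than Kif11 was tested by the log2 ratio of each of the other 12 to Kif11 within each library. Kif11 had the largest log2 fold change of the 13 in these same libraries, so its choice as reference favours lower ratios in Nrp-1+ iTreg. By exact two-sided permutation test 3 reached the smallest p that 4 libraries against 4 allow (exact p = 0.0286, adjusted over the 12 0.114), with ratios to Kif11 that were lower in Nrp-1+ iTreg in all 4 libraries. These were Kifc5b (difference of -0.30 on the log2 scale), Kifc1 (-0.21) and Kif23 (-0.085). With so few libraries a single member cannot pass after adjustment over the 12, so the other 9 are not shown to have moved as much as Kif11. All 13 mitotic kinesins rose in each of 19 alternative analyses, among them each library left out in turn and 2 with the short RNA genes set aside, with log2 fold changes from 0.55 to 0.99.

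**Figure D2:**
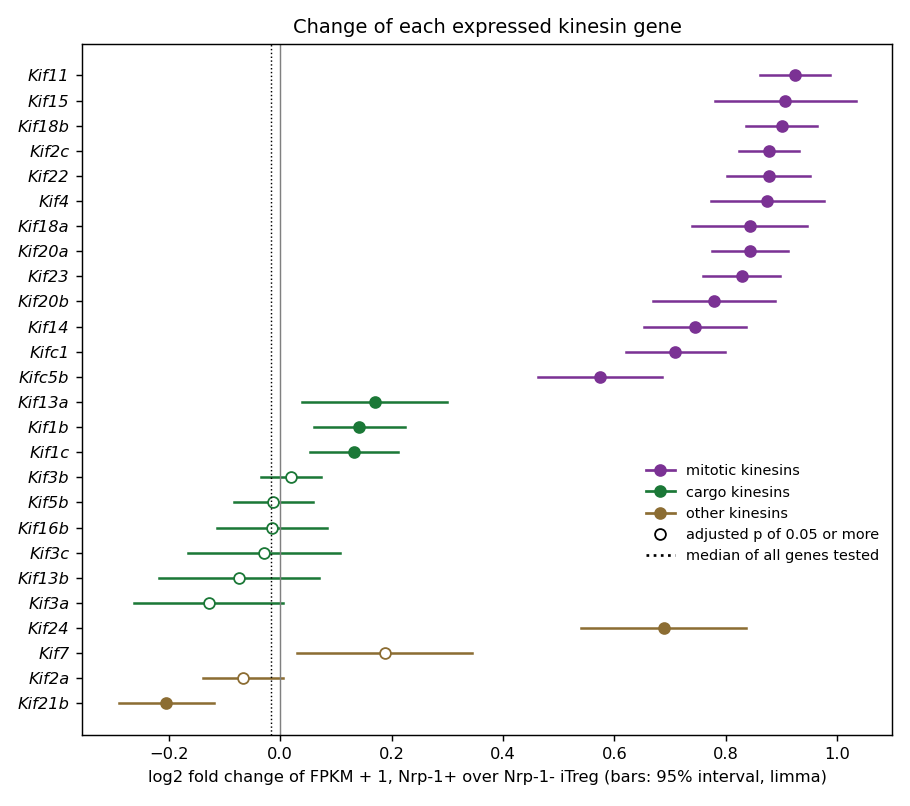
Log2 fold change of FPKM + 1, Nrp-1+ over Nrp-1- iTreg, of the 26 tested kinesin genes by class (points) with the 95% interval from limma (bars), open points for an adjusted p of 0.05 or more, and a dotted line at the median of all tested genes, -0.016. The 13 mitotic kinesins lie between 0.57 and 0.92, the 9 cargo kinesins between -0.13 and 0.17, and Kif24 of the other class at 0.69.

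The sequence before the start of transcription was read for the members that moved together. Promoters of many G2 and M phase genes hold a CHR (cell cycle genes homology region), bound by the DREAM and MYB-MuvB complexes, often with CCAAT boxes upstream, while E2F sites are linked to the G1/S phase. The RefSeq promoter table (build GRCm38.p6) held 33 of the 42 kinesin genes and not Kif5a, Kif5b, Kif13b, Kif19a, Kif20a, Kif21b, Kifc2, Kifc3 or Kif4-ps. In the 250 bases before each start, both strands were searched for a CHR, spelled TTTGAA or else with a middle CG as TTCGAA, for the CCAAT box by those letters, and for E2F sites, spelled TTTGGCGC. A further spelling of the E2F site, TTTCGCGC, was counted as well. CHR letters stood before 5 of the 12 tested mitotic kinesins with a promoter (Kif2c, Kif11, Kif14, Kif15 and Kif22), which is 41.7%. They stood before none of the 7 such cargo kinesins, before 14.4% of the 7700 tested genes with a promoter, before 17.3% of those that rose and before 19.6% of all 27025 genes of the table. CCAAT stood before 8 of the 12 mitotic and 3 of the 7 cargo kinesins, before 41.2% of tested genes and before 49.8% of those that rose. E2F letters stood before Kif15 and Kif18a of the mitotic class, before no cargo kinesin, before 1.75% of tested genes and before 3.15% of those that rose. Such matches describe letters, not bound sites, and no match says only that these letters are absent from this window.

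The CHR letters lay within 30 bases of the start in Kif11, Kif15 and Kif22, in Kif24 of the other class, and in Kif26b, which was barely detected. The last 120 bases before the start are shown for the first 4 of these and, for comparison, for Kif2a and Kif3b, expressed kinesins that were not called. They lie at chr19:37376262-37376381 (Kif11, plus strand), chr9:122950961-122951080 (Kif15, plus), chr7:127042421-127042540 (Kif22, minus), chr4:41464849-41464968 (Kif24, minus), chr13:107022356-107022475 (Kif2a, minus, the more upstream of its 2 starts) and chr2:153291296-153291415 (Kif3b, plus). Capitals mark CHR letters (TTCAAA or TTCGAA here), CCAAT or its reverse complement ATTGG, and the E2F letters GCGCCAAA, read 5′ to 3′ along the gene.
Kif11: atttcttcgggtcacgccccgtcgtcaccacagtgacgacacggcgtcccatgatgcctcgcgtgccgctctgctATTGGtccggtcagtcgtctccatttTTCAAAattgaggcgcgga
Kif15: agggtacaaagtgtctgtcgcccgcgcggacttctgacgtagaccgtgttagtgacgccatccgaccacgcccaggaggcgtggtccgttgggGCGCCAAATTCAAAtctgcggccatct
Kif22: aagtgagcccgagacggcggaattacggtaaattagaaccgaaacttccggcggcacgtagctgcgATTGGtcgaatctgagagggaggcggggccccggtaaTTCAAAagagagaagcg
Kif24: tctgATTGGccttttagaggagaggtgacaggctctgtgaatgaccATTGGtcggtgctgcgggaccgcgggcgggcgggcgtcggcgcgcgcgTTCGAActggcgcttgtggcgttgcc
Kif2a: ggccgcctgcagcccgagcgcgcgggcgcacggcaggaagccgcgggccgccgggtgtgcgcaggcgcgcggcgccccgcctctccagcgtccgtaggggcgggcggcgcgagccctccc
Kif3b: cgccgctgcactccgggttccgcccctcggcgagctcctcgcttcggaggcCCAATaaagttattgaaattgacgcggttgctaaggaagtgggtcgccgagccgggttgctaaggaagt
In Kif11 and Kif15 the CHR letters occupy bases 19 to 14 before the start, in Kif22 bases 17 to 12, and in Kif24 bases 26 to 21. The E2F letters of Kif15 end where its CHR letters begin, without sharing a base. None of the CHR or E2F letters searched occurs in the stretch of Kif2a or of Kif3b.

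Genes of the proteins that mitotic kinesins work with rose too. Of 17 such genes, 16 rose, all by a ratio of at least 1.5 and with no overlap between the groups, and none fell. Of all tested genes 20.9% rose, 5.57% rose by such a ratio, and 20.2% were higher without overlap. Their median log2 fold change was 0.83. The 4 that rose most were Aurkb, the kinase of the chromosomal passenger complex that Kif20a carries (76.3 against 38.8 FPKM, log2 fold change 0.96), Nusap1, a spindle-binding protein (113.9 against 58.5 FPKM, 0.95), Plk1, a kinase that docks on Kif20a and other midzone proteins (61.0 against 31.5 FPKM, 0.93), and Aurka, the spindle pole kinase (48.9 against 25.5 FPKM, 0.92). Cenpe, which encodes the kinetochore motor of the kinesin-7 family under a symbol outside the naming rule, was at 22.0 ± 1.66 FPKM in Nrp-1+ and 12.4 ± 0.401 FPKM in Nrp-1- iTreg (SD, n = 4). With a log2 fold change of 0.77 (limma adjusted p = 1.11e-05) it lay inside the range of the mitotic kinesins. The exception was Numa1, a spindle pole protein that is also a nuclear protein between divisions, at 57.2 against 55.8 FPKM (limma adjusted p = 0.394). Stard9, another kinesin under its own name, was looked for and has no row under that symbol.

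Of the 9 tested cargo kinesins, 6 were not called, which does not show that their levels were equal. Kif5b, the ubiquitous heavy chain of conventional kinesin and the most abundant of the class, was at 30.0, 31.0, 29.6 and 28.7 FPKM in Nrp-1+ and at 31.2, 29.7, 29.0 and 30.4 FPKM in Nrp-1- iTreg. The libraries overlapped throughout, and the 95% interval of its log2 fold change ran from -0.084 to 0.059 (limma adjusted p = 0.775). Kif3b, a subunit of the kinesin-2 motor, was at 15.5 to 15.9 FPKM against 15.1 to 15.8 FPKM (log2 fold change 0.020). Its partner subunits were lower in level, with Kif3a at 1.72 to 1.94 FPKM against 1.91 to 2.23 FPKM and Kif3c at 3.56 to 4.48 FPKM against 3.98 to 4.33 FPKM. The interval for Kif3a, from -0.26 to 0.0058, reached furthest below 0 of the class (limma adjusted p = 0.115). Kif13b, a kinesin-3 motor, was at 3.00 to 3.80 FPKM against 3.35 to 3.75 FPKM, and Kif16b, a motor of early endosomes, at 5.87 to 6.68 FPKM against 6.19 to 6.66 FPKM, with overlap in both.

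The 3 cargo kinesins that rose all belong to the kinesin-3 family and rose little. Kif1c, which carries vesicles and integrins, was at 12.5, 12.0, 11.6 and 12.7 FPKM in Nrp-1+ and at 11.4, 10.9, 11.1 and 10.8 FPKM in Nrp-1- iTreg. The groups were close but did not overlap, 10.6% higher (limma adjusted p = 0.0154). Kif1b, a motor of mitochondria and vesicle precursors, was at 6.90, 6.99, 7.19 and 6.91 FPKM against 6.54, 6.42, 5.97 and 6.08 FPKM, 11.9% higher and again without overlap (limma adjusted p = 0.0136). The call of Kif1b held in 18 of 19 alternatives, with limma adjusted p up to 0.0515. Kif13a, which moves recycling endosomes, was at 1.96, 2.24, 1.91 and 2.08 FPKM against 1.78, 1.75, 1.62 and 1.69 FPKM. Its Nrp-1+ libraries were 19.9% higher on average (limma adjusted p = 0.0435), and the call held in 8 of 18 alternatives, with adjusted p from 0.0116 to 0.117. It was lost on leaving out any library other than Nrp-1+ replicate 3 (limma adjusted p from 0.0585 to 0.111). The log2 fold changes of these 3, from 0.13 to 0.17, lay below the lowest value of the mitotic class, 0.57. The remaining 6 cargo kinesins were under the filter: Kif5c at 0.329 to 0.505 FPKM, Kifc2 at 0.567 to 1.16 FPKM and Kifc3 at 0.463 to 0.992 FPKM over the 8 libraries, and the mainly neuronal Kif1a, Kif5a and Kif17 at no more than 0.138 FPKM in any library.

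The list of cargo kinesin partners held 16 genes, Stard9 among them, of which 15 are in the table and 14 were tested. Of the tested genes 2 rose, 4 fell and 8 were not called, a share near the 40.9% of all tested genes that were called. Their median log2 fold change was -0.032. Kifap3, the subunit that ties cargo to the Kif3a and Kif3b motor, was at 3.69, 3.63, 3.32 and 3.05 FPKM in Nrp-1+ and at 2.40, 2.67, 1.77 and 2.31 FPKM in Nrp-1- iTreg. Its groups did not overlap (log2 fold change 0.43, limma adjusted p = 0.0068), whereas those of Kif3b did. Bicd2, an adaptor that links cargo to dynein and kinesin, was at 17.7 against 14.4 FPKM (log2 fold change 0.28). Klc4, a light chain of conventional kinesin, was at 10.7 against 13.7 FPKM (log2 fold change -0.33, limma adjusted p = 0.00334), and Mapk8ip3, the JIP3 adaptor, at 5.74 against 7.49 FPKM (-0.34). The light chain Klc1 was at 24.9 against 25.0 FPKM (limma adjusted p = 0.881). The opposing motor, cytoplasmic dynein with its dynactin complex, had 18 tested genes, of which 3 rose and 1 fell, where 20.9% of all tested genes rose and 20.0% fell, with a median log2 fold change of -0.031. These were the light chains Dynll2 (log2 fold change 0.25) and Dynll1 (0.17), the dynactin subunit Dctn1 (0.084), and Actr10, a dynactin pointed-end protein, which fell by 0.16 on the log2 scale.

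The other kinesins gave the one decrease of the superfamily. Kif21b, a kinesin-4 motor that limits microtubule growth and is abundant in lymphocytes, was at 58.0, 57.4, 56.6 and 63.0 FPKM in Nrp-1+ and at 70.0, 66.4, 66.2 and 68.6 FPKM in Nrp-1- iTreg. All Nrp-1+ libraries lay below all Nrp-1- libraries, by 13.3% on average, with replicate 4 of Nrp-1+ iTreg nearest to the other group (log2 fold change -0.20, SE 0.037, limma adjusted p = 0.00293). The call held in each of 19 alternatives. It was weakest with scaling to the summed FPKM without short RNA genes (log2 fold change -0.14, limma adjusted p = 0.0498). Kif21b was the most abundant kinesin of Nrp-1- iTreg, ahead of Kif11 in every library. In Nrp-1+ iTreg both Kif11 and Kif22 stood above it in every library. Kif24, a kinesin-13 of the centriole that holds back the growth of cilia, was at 2.67, 2.78, 2.84 and 3.00 FPKM against 1.59, 1.37, 1.22 and 1.32 FPKM. It had the highest ratio of all tested kinesins, 2.05, at a low level (log2 fold change 0.69, SE 0.064, limma adjusted p = 7.71e-05), and rose in each of 18 alternatives.

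Kif2a, a kinesin-13 depolymerase found in cells that do not divide as well as at spindle poles, was at 24.4 to 26.0 FPKM against 25.9 to 28.0 FPKM. The groups overlapped slightly, and the interval of its log2 fold change ran from -0.14 to 0.0050 (limma adjusted p = 0.124). Had Kif2a been classed as mitotic, 13 of 14 tested members of that class would have risen. Kif7, the ciliary motor of Hedgehog signalling, was at 1.14, 1.11, 1.37 and 1.11 FPKM against 0.895, 0.926, 0.948 and 0.893 FPKM. All 4 Nrp-1- libraries were below 1 FPKM, so Kif7 was tested only through its level in Nrp-1+ iTreg. The groups did not overlap, 29.4% higher, but limma gave an adjusted p of 0.0574, and Nrp-1+ replicate 3 stood apart from its group. The other 8 of the class were under the filter, Kif6 and Kif12 at 0 in all libraries, Kif9 at 0.348 to 0.667 FPKM against 0.218 to 0.375 FPKM, and Kif19a, Kif21a, Kif26a, Kif26b and Kif27 at no more than 0.0611 FPKM in any library.

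Summed by class, the mitotic class carried the difference in kinesin message. The mitotic kinesins summed to 508.7 ± 6.84 FPKM in Nrp-1+ and 276.9 ± 5.58 FPKM in Nrp-1- iTreg (SD, n = 4), ranges of 499.98 to 516.7 and 269.1 to 282.3. The cargo kinesins summed to 84.3 ± 1.74 FPKM and 82.9 ± 1.49 FPKM, with overlapping libraries, and the other kinesins to 88.7 ± 2.39 FPKM and 97.1 ± 1.92 FPKM, a sum mostly of Kif21b and Kif2a. On the log2 scale the mean of the 4 tested other kinesins went the opposite way, at 3.42 ± 0.022 in Nrp-1+ and 3.27 ± 0.033 in Nrp-1- iTreg, since Kif24 then counts as much as Kif21b. The mitotic share of all kinesin FPKM was 74.9%, 74.5%, 75.0% and 74.0% in the Nrp-1+ libraries and 60.2%, 61.2%, 60.4% and 60.6% in the Nrp-1- libraries. A share within a library is not moved by the scaling of that library. The mean of log2(FPKM + 1) of the mitotic kinesins exceeded that of the cargo kinesins by 2.11 ± 0.037 in Nrp-1+ and by 1.31 ± 0.021 in Nrp-1- iTreg, while the mean over all tested genes was 4.10 against 4.08. These sums describe members whose own changes are given above, so no test was made on them.

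**Figure D3:**
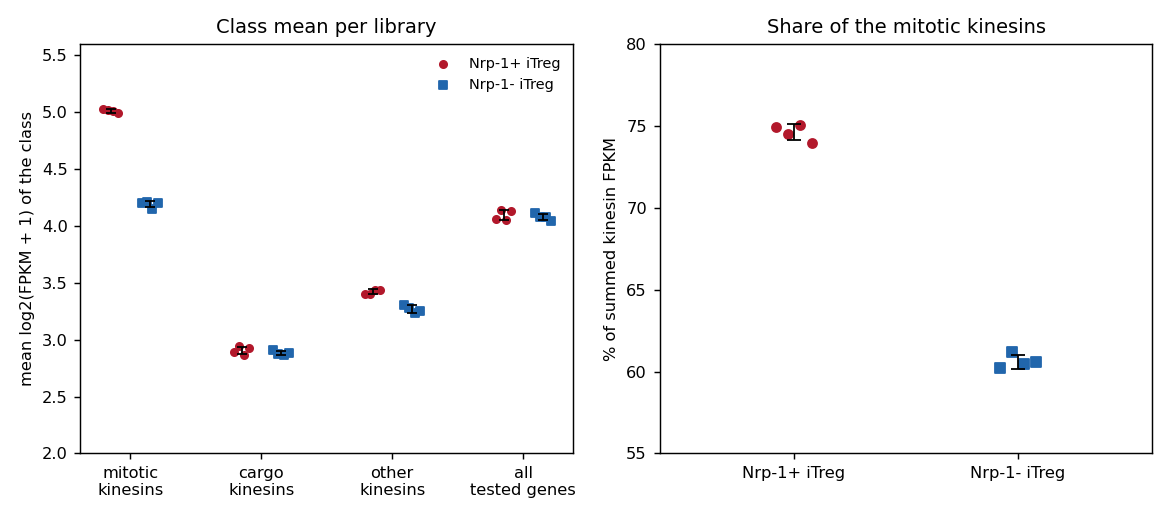
Left, mean log2(FPKM + 1) of the tested mitotic, cargo and other kinesins and of all tested genes in each library (points), with the group mean ± SD. Right, percent of summed kinesin FPKM in mitotic kinesins, on an axis from 55% to 80%, at 74.0% to 75.0% in Nrp-1+ and 60.2% to 61.2% in Nrp-1- iTreg.

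Within a single kinesin family, members classed as mitotic and members outside that class share a motor domain of common descent, and their ratio inside each library does not depend on how that library was scaled. Of 9 such pairs among the tested genes, the log2 ratio did not overlap between the groups in 8 (exact two-sided permutation test, p = 0.0286 for each, the smallest possible, adjusted over the 9 pairs 0.0321). The pairs reuse 3 mitotic genes, Kif2c, Kif4 and Kif14, whose own changes are given above, so the ratios restate those changes relative to a family member and add no independent support. In the kinesin-13 family, Kif2c over Kif2a was 0.46 ± 0.046 in Nrp-1+ and -0.52 ± 0.026 in Nrp-1- iTreg (SD, n = 4), so the centromere motor exceeded its relative in every Nrp-1+ library and fell short of it in every Nrp-1- library. Kif2c over Kif24 was 3.63 ± 0.070 against 3.76 ± 0.15, with overlapping libraries (exact permutation p = 0.171). In the kinesin-4 family, Kif4 over Kif21b was -0.86 ± 0.11 against -1.98 ± 0.058, the widest shift at 1.12, between members that were called in opposite directions. Kif4 over Kif7 shifted by 0.55, a pair in which Kif7 reached the filter of 1 FPKM only through its Nrp-1+ libraries.

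The kinesin-3 family showed the same order with its single mitotic member. Kif14 over Kif16b went from -0.62 ± 0.11 in Nrp-1- to 0.28 ± 0.056 in Nrp-1+ iTreg, and Kif14 over Kif1b from -0.57 ± 0.066 to 0.14 ± 0.071. In both pairs Kif14 was below the cargo motor in all Nrp-1- libraries and above it in all Nrp-1+ libraries. The ratio to Kif13b shifted by 0.97, that to Kif1c by 0.73 and that to Kif13a by 0.62, without a change of sign. The 5 pairs share Kif14, so they are not independent of each other.

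**Figure D4:**
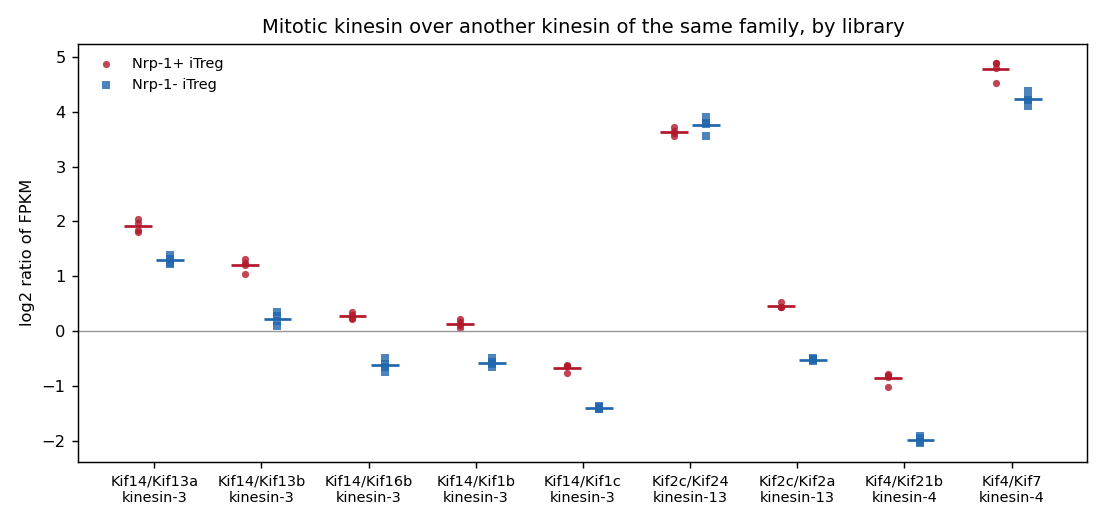
Log2 ratio of FPKM of a mitotic over another kinesin of the same family outside that class, in each library (points) with group means (dashes), for 9 pairs, with a line at equal levels. In 8 pairs the Nrp-1+ libraries (red) lie above all Nrp-1- libraries (blue), and Kif2c over Kif24 overlaps.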

How the data were processed

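Illumina reads were handled by the authors in CLC Genomics Workbench, and Cufflinks gave the FPKM values they deposited, 1 for each gene symbol in each library. The submitters' processing notes name GRCm38 and mm10, and the annotation is not given in the sources used here. The labels name a SMARTER kit and the paper a directional poly(A) kit, so whether strand was used is unclear. FPKM divides by mapped fragments, so abundant short RNA can lower all other genes of a library. No column of sample values was left unmapped (0), and the nTreg samples that the paper describes are not among the 8 libraries.

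The test was limma 3.58.1 on log2(FPKM + 1) over genes with a mean of at least 1 FPKM (eBayes with trend, R 4.3.3), without a replicate block, and called at a Benjamini-Hochberg adjusted p under 0.05. Fold changes on this scale understate those of low genes. Ratios within a library were tested by exact two-sided permutation (Python 3.11.15, numpy 2.4.6, pandas 2.3.3). The scripts were tested on simulated data. Alternatives were other pseudocounts (0.1, 0.5), no filter or a mean of at least 5 FPKM, other scalings, fits without short RNA genes, a replicate block, eBayes without trend, array weights, an exact Mann-Whitney test, and each library left out.

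The kinesin classes, partner lists, markers and motifs were chosen with earlier results of these data known. Every kinesin with a mean of at least 1 FPKM is described, and from each partner list the 4 called genes with the largest change plus kinesins under other symbols. Klc1, Klc2, Klc3 and Numa1 are named besides, chosen after their values were seen. The RefSeq promoter table names build GRCm38.p6.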

Additional observations from a re-analysis of the deposited data

Results flagged for a closer look

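In each tested kinesin gene and group, the gap of the highest or lowest library to its neighbour was compared with the range of the 4 libraries by Dixon's test. Of 52 such groups, 2 passed the 95% critical value, where chance alone would give about 2.6. Kif7 was highest in Nrp-1+ replicate 3, at 1.3729 FPKM, with the other 3 libraries between 1.1123 and 1.1402 FPKM. Kifc1 was lowest in Nrp-1- replicate 3, at 30.32 FPKM, with the others between 33.341 and 33.771 FPKM. Without Nrp-1- replicate 3, Kifc1 still rose.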

How the results depend on the processing

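The 13 mitotic kinesins were called higher in all 19 alternatives, with limma adjusted p of at most 0.000633. Their median log2 fold change of 0.8426 became 0.8912 and 0.8843 with pseudocounts of 0.1 and 0.5, 0.9036 with scaling to the summed FPKM without short RNA genes, and 0.8183 to 0.8652 with 1 library left out. The cargo median of -0.01245 became 0.01952 at a mean of at least 5 FPKM, 0.04815 with that scaling, and -0.03002 to 0.01905 with 1 library left out. The median of the other kinesins, 0.06073, became 0.1329 and 0.0903 with the 2 pseudocounts, 0.005518 without a filter, -0.1354 at a mean of at least 5 FPKM and 0.1068 with that scaling. With 1 library left out it ran from 0.03933 to 0.0773. The count of other kinesins called higher went from 1 to 2, through Kif7, without a filter, with that scaling, without trend, with array weights and by the Mann-Whitney test, and to 0 at a mean of at least 5 FPKM, which removes Kif24. Without trend, 1 cargo kinesin, Kif3a, was called lower (adjusted p = 0.0461). Kif13a was lost in 7 of the 8 fits without a library. With the replicate number as a block (replicate block), 1 cargo kinesin rather than 3 was called higher, Kif1c (adjusted p = 0.0446), against 0.0515 for Kif1b and 0.0884 for Kif13a. The block changed no mitotic call. It also ended the call of Dctn1 (adjusted p = 0.0903) and called Klc2 lower (0.0209). Same-numbered libraries did not deviate together (correlations of -0.54, -0.020, 0.010 and -0.50 over tested genes, and from -0.11 to -0.038 without short RNA genes). No Nrp-1+ library correlated best with the Nrp-1- library of its own number. These correlations gave no sign that the numbers pair the libraries. With so few libraries they cannot show whether a culture was split into both subsets. Absolute depth is unknown, and members under 1 FPKM rest on few reads.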
